A study of Mus musculus with 21 samples.

Results

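The Myc, Max and Mxd network comprised 9 measured genes of 55421 in the expression table, namely Myc, Mycn, Max, Mxd1, Mxd3, Mxd4, Mxi1, Mnt and Mga, chosen by gene symbol. Their mRNAs were measured in 15 libraries of a mouse lymphoid progenitor (LP) line, 3 replicates in each of 5 groups. To these were added the ChIP-seq peaks to which a network gene was the nearest gene, which were 7 of 5898 Zbtb1 peaks and 11 of 6077 Cbfa2t3 peaks. All groups were C57BL6/J, lacked Ebf1, a factor that B-lineage commitment needs, and were carried on OP9 stromal cells with SCF, IL-7 and Flt3L. Each received Cas9 and then pooled guide RNAs (sgRNAs), which targeted Zbtb1, Cbfa2t3, Cbfa2t2, Lmo2 or, as control, luciferase (sgControl), and the doubly transduced cells were sorted without Notch stimulation. Lmo2 is a bridging factor, Zbtb1 a BTB-zinc finger protein, and Cbfa2t2 and Cbfa2t3 corepressors of the ETO family. The cells come from a cultured line and not directly from mice, and were sorted for markers of both vectors. The study calls its replicates biologically independent, whereas the labels name no separate cultures, so the p-values measure only the spread between these libraries. The question asked here is whether the mRNAs of the network differed between the groups, and where Zbtb1 and Cbfa2t3 lay around its genes.

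Myc and Mycn are basic helix-loop-helix leucine zipper proteins that activate genes of growth, ribosome production and metabolism. They bind the E-box CACGTG only as dimers with Max. The Mxd proteins (Mxd1, Mxd3, Mxd4 and Mxi1, which is also called Mxd2), Mnt and Mga compete for the same partner and for the same E-box, and recruit Sin3 and histone deacetylases or, for Mga, a Polycomb complex. In lymphoid progenitors Myc and Mycn are known for their part in proliferation, and Mxd genes other than Mxd3 for rising as cells leave the cycle.

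Each library held between 1705416 and 2095447 reads, so that 3 reads corresponded to 1.432 to 1.759 CPM (reads of a gene scaled to a common library size). These are 3′ end counts, about 1 tag per mRNA, and were not divided by gene length. Targeted mRNAs were not lowered in the libraries labelled with their guides: Zbtb1 was 106 ± 9.91 CPM (SD, n = 3) in sgZbtb1 against 61.7 ± 5.51 in sgControl, Cbfa2t3 was 349.8 against 190.2 CPM and Cbfa2t2 21.9 against 11.8 CPM in their own groups, and Lmo2 overlapped sgControl (16.3 against 18.4 CPM). Zbtb1, Cbfa2t3 and Cbfa2t2 each had their highest group mean in the group labelled with their guides. The labels could not be checked by a loss of mRNA, and each group named below means the libraries labelled so. By immunoblot, the study reported specific loss of Lmo2, Zbtb1 and Cbfa2t3 protein, and these blots were not analysed here. Ebf1 itself gave 209 to 366 CPM, and which part of it the line lacks was not examined. The 12 progenitor markers summed to 1953 to 2226 CPM in all libraries. Of 10 myeloid markers, 4 were at 0 throughout and 4 had means above 1 CPM, with sums of 65.2 to 99.5 CPM, and of 10 stromal markers 3 (Dcn, Col3a1 and Lum) were at 0, with sums of 1.96 to 14.2 CPM. The stromal sums were 1.96 to 6.14 CPM in sgZbtb1, 4.63 to 12.3 CPM in sgControl and 6.57 to 14.2 CPM in sgLmo2. Pdgfrb, the only stromal marker tested, had log2 differences in sgZbtb1 of -1.42 against sgControl and -1.36 against sgLmo2. It passed the adjusted threshold in neither. In these bulk samples, fewer cells of a kind and less RNA per cell cannot be told apart.

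No network gene passed the test against sgControl in any of the 4 disrupted groups, while 3 of 9 passed between sgZbtb1 and sgLmo2, the groups at the opposite ends of the order for those 3 genes. In sgZbtb1, Myc was 1.68 times the sgLmo2 level (47.6 ± 7.41 against 28.1 ± 6.2 CPM, SD, n = 3 each), whereas Mycn (116 ± 9.65 against 158 ± 9.62 CPM) and Mxi1 (44.2 ± 9.1 against 71.3 ± 5.28 CPM) were lower. Max, the common partner, passed in no comparison and had group means from 134 to 146 CPM. Over the 15 libraries Max, Mxd4, Mga and Mycn had means of 131 to 139 CPM, Mxi1, Mnt and Myc lay at 53.8, 45.3 and 38.4 CPM, and Mxd1 and Mxd3 were lowest at 26.6 and 17.5 CPM. Among the 11554 genes tested, these means stood between the 40.9th percentile (Mxd3) and the 88.0th (Max).

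**Figure D1:**
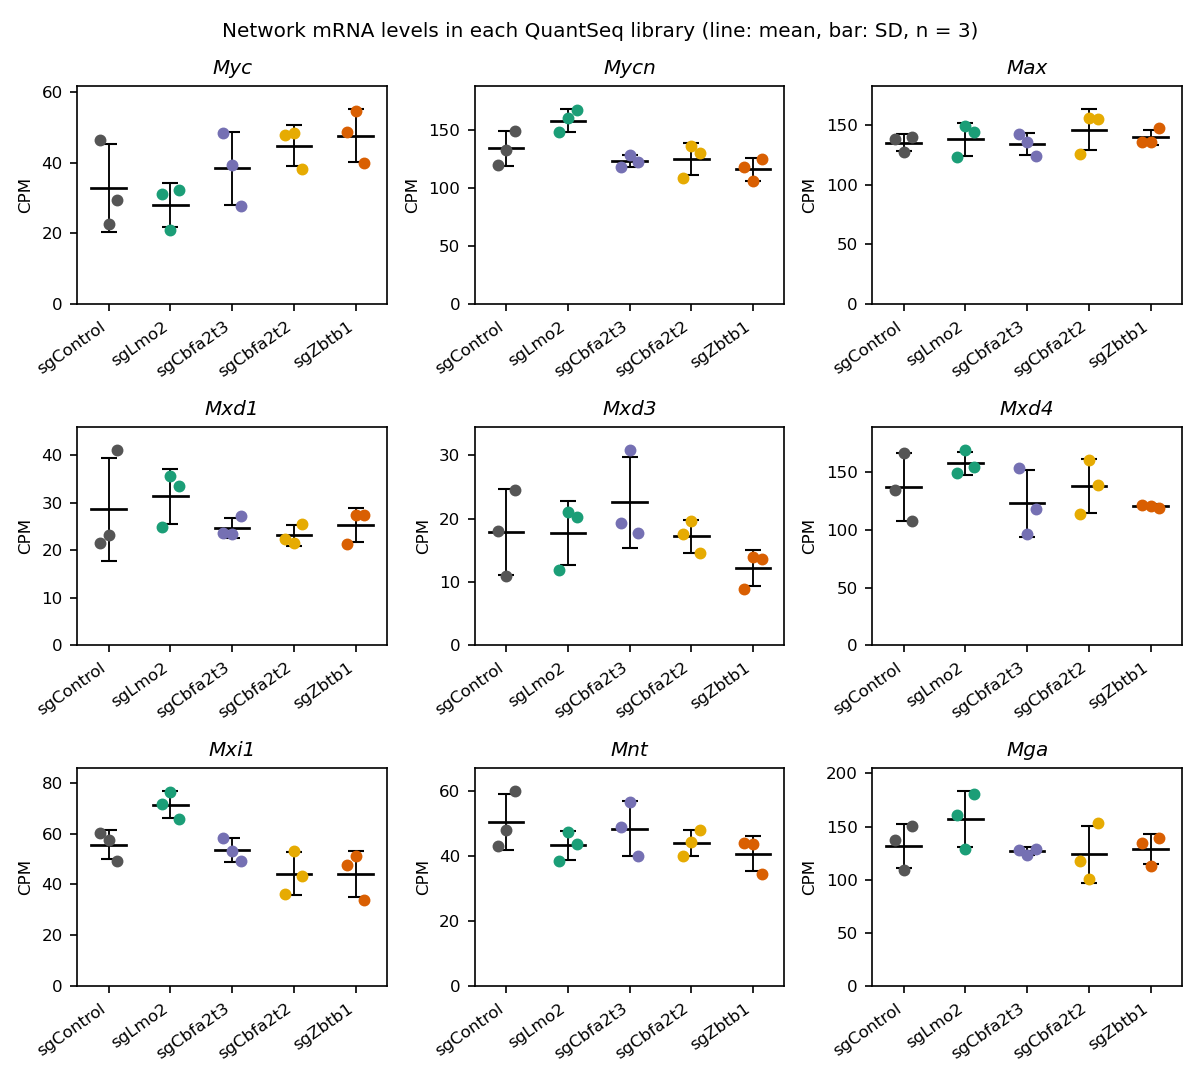
Level of each network gene in CPM (y axis, from 0) in every QuantSeq library, by group (x axis). Points are libraries, the long line is the mean and the bar its SD (n = 3). Max lies between 123 and 156 CPM in all 15 libraries, whereas Mxi1 in sgLmo2 (65.7 to 76.3 CPM) lies above every other library.

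Myc, the growth-promoting activator, stood at 46.5, 22.6 and 29.3 CPM in the 3 sgControl libraries, 31.1, 21.0 and 32.3 CPM in sgLmo2, 48.3, 39.4 and 27.7 CPM in sgCbfa2t3, 47.9, 48.2 and 38.2 CPM in sgCbfa2t2, and 48.6, 54.5 and 39.8 CPM in sgZbtb1. All sgZbtb1 and sgCbfa2t2 libraries lay above all sgLmo2 libraries, whereas sgControl replicate 1 lay among the high values and the other two sgControl libraries among the low ones. These levels rest on 39 to 114 reads per library. On the log2(CPM + 1) scale, sgZbtb1 exceeded sgControl by 0.58 (SE 0.22, 95% interval 0.13 to 1.02), which did not pass (limma adjusted p = 0.128, from 0.0891 to 0.285 over 8 other settings). Without sgControl replicate 1 the difference was 0.85 and passed (limma adjusted p = 0.0271). That was the only 1 of 6 fits without 1 library to pass. Over these fits the difference ran from 0.35 to 0.85 and the limma adjusted p from 0.0271 to 0.526. For sgCbfa2t2 the difference was 0.49 (interval 0.04 to 0.94, limma adjusted p = 0.476), for sgCbfa2t3 0.25 (interval -0.20 to 0.70) and for sgLmo2 -0.18 (interval -0.62 to 0.27). Against sgLmo2, the Myc level in sgZbtb1 rose by 0.75 (SE 0.22, interval 0.30 to 1.2, limma adjusted p = 0.0331). That call held in 7 of 8 other settings, with adjusted p from 0.0172 to 0.133, and in 3 of the 6 limma fits without 1 library. Neighbours in the order sgLmo2, sgControl, sgCbfa2t3, sgCbfa2t2, sgZbtb1 overlapped in every case.

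Mycn, the paralogue that early progenitors express, was more abundant than Myc in every library. Its levels were 119.6, 133 and 149 CPM in sgControl, 148, 159.9 and 167 CPM in sgLmo2, 118, 128 and 122 CPM in sgCbfa2t3, 109, 136 and 129.9 CPM in sgCbfa2t2, and 118, 106 and 125 CPM in sgZbtb1. The sgLmo2 libraries were above every library of the 3 other disrupted groups, but overlapped sgControl. Mycn fell by 0.44 on the log2 scale in sgZbtb1 against sgLmo2 (SE 0.12, interval -0.69 to -0.20, limma adjusted p = 0.0171). Against sgControl its difference was -0.20 in sgZbtb1 (interval -0.44 to 0.04, limma adjusted p = 0.41) and 0.24 in sgLmo2 (limma adjusted p = 0.878). Cbfa2t3 had its highest-scoring network peak past the end of Mycn, an intergenic site at chr12:12877625-12878003 with a score of 51.3, 64.0 kb downstream of the Mycn start. The central 200 bp of this peak, chr12:12877714-12877913 (mm10, plus strand), are shown because no other peak of the network genes scored higher in that list, and they held none of the 3 motifs searched:
Mycn downstream, Cbfa2t3: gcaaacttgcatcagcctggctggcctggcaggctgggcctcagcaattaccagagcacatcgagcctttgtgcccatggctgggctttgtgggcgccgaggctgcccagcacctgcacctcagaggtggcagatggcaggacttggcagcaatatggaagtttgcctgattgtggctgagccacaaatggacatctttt

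**Figure D2:**
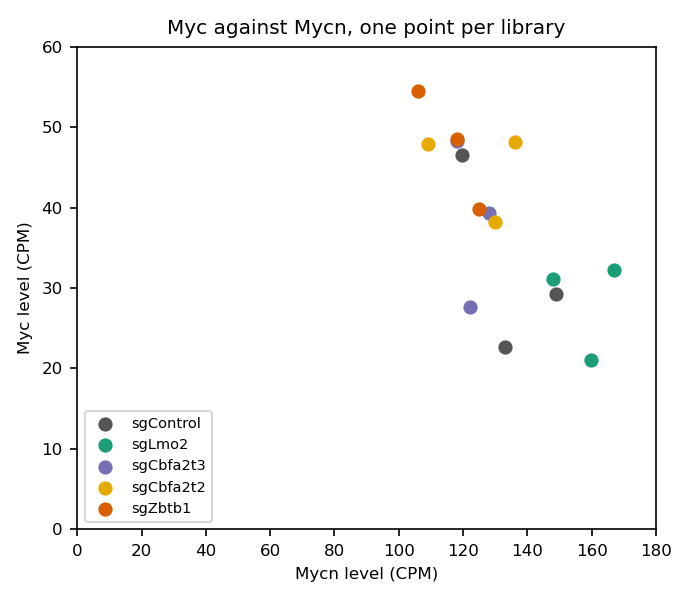
Myc level (y axis, CPM) against Mycn level (x axis, CPM), 1 point per library, coloured by group; both axes start at 0. The sgLmo2 points have the highest Mycn (148 to 167 CPM) apart from 1 sgControl library, and Myc of at most 32.3 CPM, whereas the sgZbtb1 points lie at 39.8 to 54.5 CPM of Myc and 106 to 125 CPM of Mycn.

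With Myc high and Mycn low in the same libraries, the ratio of the Myc to the Mycn tag level was 0.131 to 0.211 in sgLmo2, 0.17 to 0.388 in sgControl, 0.226 to 0.409 in sgCbfa2t3, 0.294 to 0.439 in sgCbfa2t2 and 0.319 to 0.516 in sgZbtb1. The sgLmo2 ratios lay below those of all 3 other disrupted groups and overlapped sgControl. Summed, Myc and Mycn averaged 161 ± 9.48 CPM in sgCbfa2t3, 163 ± 2.95 CPM in sgZbtb1 and 167 ± 11 CPM in sgControl. They averaged 170 ± 13.6 CPM in sgCbfa2t2 and 186 ± 11 CPM in sgLmo2. Pvt1, the non-coding RNA gene beside Myc, averaged 3.26 ± 1.74 CPM in sgLmo2 and 7.3 ± 0.937 CPM in sgZbtb1, a log2 difference of 1.04 that did not pass (limma adjusted p = 0.187) and that reaches down to the value of 3 reads. Among 8148 other genes with a mean above 10 CPM, the 4 whose log2 levels followed Myc most closely over the 15 libraries were Nt5c3 (Pearson r = 0.845), a pyrimidine nucleotidase, Suclg2 (r = 0.824), a subunit of succinyl-CoA ligase, Hnrnpab (r = 0.82), an RNA-binding protein, and Atp2b4 (r = 0.816), a plasma membrane calcium pump. Those libraries share their groups and their read depth, and these values are descriptions.

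Max, the obligate partner, ranged from 123 to 156 CPM over all 15 libraries, and its group means spanned 0.12 on the log2 scale, the least of the 9 genes. The difference between sgZbtb1 and sgLmo2 was 0.02, with an interval of -0.22 to 0.25. No interval of Max against sgControl reached beyond -0.26 or 0.34. Cbfa2t3 had a pair of intergenic peaks upstream of Max, at 94.8 and 103.5 kb from its start with scores of 49.1 and 26.6, the second in a long terminal repeat, and Zbtb1 had none to which Max was nearest.

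Mxi1 was the antagonist whose level varied most clearly. It stood at 60.4, 57.3 and 49.3 CPM in sgControl, 71.8, 76.3 and 65.7 CPM in sgLmo2, 58.4, 53.1 and 49.3 CPM in sgCbfa2t3, 36.2, 53.0 and 43.5 CPM in sgCbfa2t2, and 47.5, 51.2 and 33.9 CPM in sgZbtb1. The 3 sgLmo2 libraries lay above the other 12. In sgZbtb1 against sgLmo2, Mxi1 fell by 0.70 (SE 0.18, interval -1.05 to -0.34, limma adjusted p = 0.00857). In sgCbfa2t2 against sgLmo2 its difference was -0.69, which did not pass (limma adjusted p = 0.0822), and passed only in the fit with a replicate block (limma adjusted p = 0.0423). Against sgControl the differences were 0.35 in sgLmo2 (limma adjusted p = 0.878, exact permutation p = 0.1, two-sided, the smallest that 3 against 3 can give) and -0.34 in both sgZbtb1 and sgCbfa2t2 (limma adjusted p = 0.308 and 0.563). Both factors also had overlapping peaks in Mxi1. In its first intron, Zbtb1 lay at chr19:53318080-53318450 with a score of 33.5 and Cbfa2t3 at chr19:53318242-53318620 with a score of 22.2, and the peaks shared 209 bp. A stronger Zbtb1 peak, chr19:53329333-53329703 with a score of 69.2 and above 84.4% of that list, lay over the start of a shorter Mxi1 transcript, 18.9 kb inside the gene. The shared stretch, chr19:53318242-53318450, and the 80 bp of the stronger peak before that internal start, chr19:53329333-53329412, are given on the plus strand of mm10, along which Mxi1 runs. Capitals mark TGTGGT, the core that Runx factors bind, which occurred once in the former:
Mxi1 intron 1, both factors: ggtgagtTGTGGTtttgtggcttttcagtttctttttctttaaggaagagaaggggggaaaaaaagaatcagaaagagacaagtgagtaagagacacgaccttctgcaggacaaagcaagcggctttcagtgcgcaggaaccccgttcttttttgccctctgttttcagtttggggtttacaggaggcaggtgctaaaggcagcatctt
Mxi1 internal start, Zbtb1: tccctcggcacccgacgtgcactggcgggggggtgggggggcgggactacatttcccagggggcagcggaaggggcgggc

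The remaining Mxd genes encode repressors that recruit Sin3. Mxd4 stood at 135, 167 and 108 CPM in sgControl, 149, 169 and 155 CPM in sgLmo2, 154, 96.5 and 118 CPM in sgCbfa2t3, 114, 160.3 and 139 CPM in sgCbfa2t2, and 122, 120.5 and 119 CPM in sgZbtb1. The sgZbtb1 libraries were below all sgLmo2 libraries, a difference of -0.38 that did not pass (interval -0.66 to -0.11, limma adjusted p = 0.095) and passed only when the fit used these 6 libraries alone (limma adjusted p = 0.036). Mxd1, which marks differentiating cells, ranged from 21.2 to 41.0 CPM, with its highest library in sgControl, and its intervals against sgControl reached from -0.73 to 0.66. Mxd3, which is linked to S phase, had only 16 to 54 reads per library and the widest intervals. It was lowest in sgZbtb1 (8.94, 13.9 and 13.7 CPM) and highest in sgCbfa2t3 (19.3, 30.8 and 17.7 CPM), a difference of -0.82 between these groups that did not pass (interval -1.44 to -0.20, limma adjusted p = 0.259). Against sgControl, the Mxd3 difference in sgZbtb1 was -0.47, with an interval of -1.09 to 0.15.

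Mnt, the broadly expressed antagonist, and Mga, which also carries a T-box, passed in no comparison. Mnt ranged from 34.4 to 59.8 CPM and was -0.29 in sgZbtb1 against sgControl (interval -0.67 to 0.08). Mga ranged from 101 to 180.2 CPM, with its highest and lowest libraries in sgLmo2 and sgCbfa2t2, and against sgLmo2 was -0.27 in sgZbtb1, -0.29 in sgCbfa2t3 and -0.34 in sgCbfa2t2 (limma adjusted p = 0.282, 0.445 and 0.564, unadjusted p = 0.0491, 0.0336 and 0.0129). Mnt nevertheless held the most Zbtb1 peaks of the network, 3 of 7. They lay just upstream of its start at chr11:74830456-74830826 (score 26.1), in intron 1 at chr11:74832008-74832378 (score 29.9) and in intron 4 at chr11:74838118-74838488 (score 33.0). In intron 4 a Cbfa2t3 peak, chr11:74838405-74838783 with a score of 20.7, covered the last 84 bp of the Zbtb1 peak, and a further Cbfa2t3 peak with a score of 32.6 lay in exon 6. The central 200 bp of the promoter peak, chr11:74830541-74830740, and the shared 84 bp, chr11:74838405-74838488, are given on the plus strand of mm10, along which Mnt runs. The first was chosen as the only promoter peak lying wholly upstream of a gene's first start and the second as the only other overlap of the factors, and neither held a motif searched:
Mnt upstream, Zbtb1: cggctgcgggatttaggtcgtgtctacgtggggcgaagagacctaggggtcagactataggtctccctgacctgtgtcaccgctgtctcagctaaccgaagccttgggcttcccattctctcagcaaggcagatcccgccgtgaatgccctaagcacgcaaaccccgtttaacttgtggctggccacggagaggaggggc
Mnt intron 4, both factors: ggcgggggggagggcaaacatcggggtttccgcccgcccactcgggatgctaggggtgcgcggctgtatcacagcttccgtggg

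Counted over the network, 0 of 9 genes passed against sgControl in sgZbtb1 (limma adjusted p under 0.05, as did 4.79% of all genes tested), sgCbfa2t3 (0.537%), sgCbfa2t2 (0.147%) and sgLmo2 (0.0173%). edgeR and DESeq2 on the recovered reads also called 0 in each. At an unadjusted limma p under 0.05 the counts were 1, 0, 1 and 0 (17.6%, 10.6%, 9.56% and 5.65% of all genes), the single gene being Myc in sgZbtb1 and in sgCbfa2t2. The groups did not overlap for 0, 0, 0 and 1 genes, Mxi1 in sgLmo2, beside 22.9%, 15.8%, 13.7% and 10.6% of all genes. The study's criterion for differential expression asks for an unadjusted p under 0.05, a log2 change above 1 and a mean above 10. Applied here to the limma fit and not to the study's own test, it was met by 0 of 9 in each. Beside this stood 1.66%, 0.658%, 0.502% and 0.234% of all genes. Differences from sgControl were negative for 7 of 9 genes in sgZbtb1 and in sgCbfa2t3, 5 in sgCbfa2t2 and 2 in sgLmo2, with medians of -0.16, -0.05, -0.10 and 0.17 beside -0.03, -0.01, 0.0 and 0.01 for all genes. The comparisons share the sgControl libraries.

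Between sgZbtb1 and sgLmo2, 3 of 9 passed, beside 5.06% of all genes, and edgeR and DESeq2 also called 3. At an unadjusted p under 0.05 there were 5 (17.5% of all genes), Mxd4 and Mga added, and the study's criterion was met by 0 (1.56%). The groups did not overlap for 4 genes, Myc, Mycn, Mxd4 and Mxi1, beside 21.8% of all genes. The calls depended on single libraries: without sgLmo2 replicate 2, which had the lowest Myc and the highest Mxi1, none of the 3 passed (limma adjusted p = 0.235 for Myc, 0.0685 for Mycn and 0.0603 for Mxi1), and without sgZbtb1 replicate 2, the highest in Myc and lowest in Mycn, Mxi1 alone passed. Removing any of the 6 libraries left the log2 difference at 0.56 to 0.87 for Myc, -0.50 to -0.38 for Mycn and -0.81 to -0.52 for Mxi1.

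**Figure D3:**
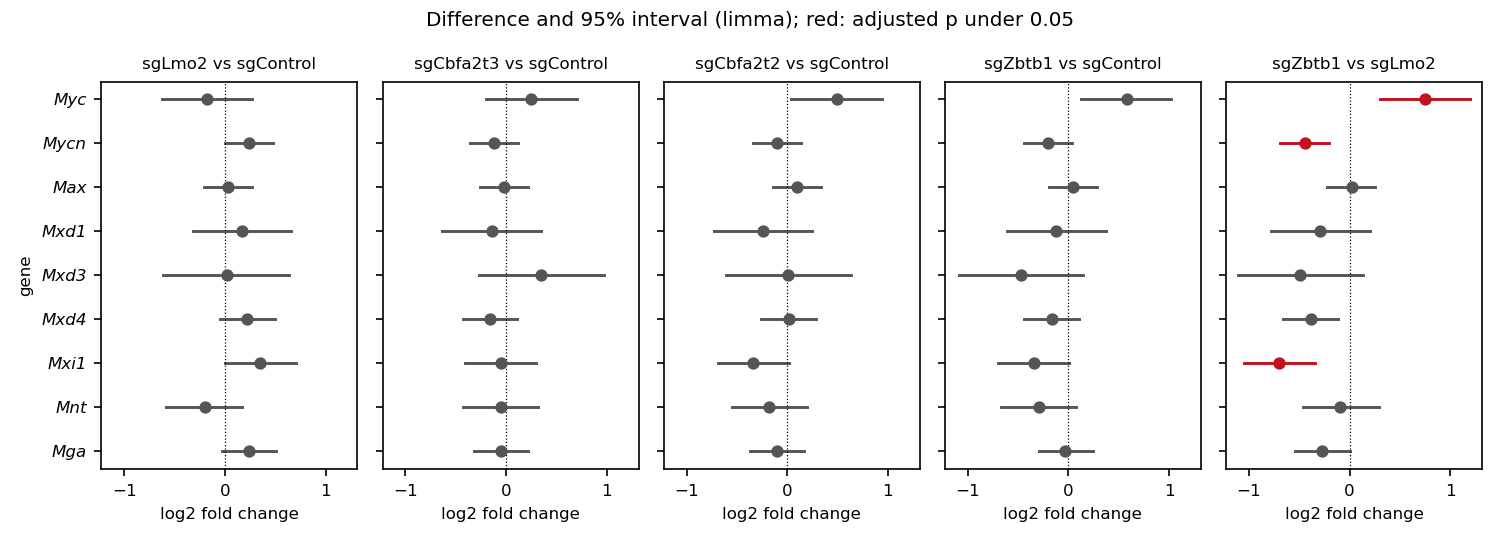
Difference in log2(CPM + 1) for each network gene (points) with its 95% interval from limma (lines), in 5 comparisons; red marks an adjusted p under 0.05 over all genes tested. Red appears only for Myc (0.75), Mycn (-0.44) and Mxi1 (-0.70) in sgZbtb1 against sgLmo2, and the Max intervals include 0 in all 5 panels.

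The other pairs of disrupted groups gave no call by limma, edgeR or DESeq2. In sgZbtb1 against sgCbfa2t3 and against sgCbfa2t2, 0 of 9 passed (1.13% and 2.27% of all genes), with 1 and 0 at an unadjusted p under 0.05 (10% and 12.7%), and Mxd3 was the gene without overlap in each (14.6% and 17.9% of all genes). Against sgLmo2, which was compared after its values had been seen, 0 of 9 passed in sgCbfa2t3 (0.736%) and in sgCbfa2t2 (0.234%), with 4 of 9 at an unadjusted p under 0.05 in each (10% and 7.07% of all genes). Mycn and Mxi1 did not overlap sgLmo2 in sgCbfa2t3 (14.4% of all genes), and Myc, Mycn and Mxi1 did not in sgCbfa2t2 (11.7%). Their log2 differences were -0.36 for Mycn and -0.40 for Mxi1 in sgCbfa2t3, and 0.67 for Myc, -0.34 for Mycn and -0.69 for Mxi1 in sgCbfa2t2. These comparisons share the sgLmo2 libraries with that of sgZbtb1. Between sgCbfa2t3 and sgCbfa2t2, also compared after the values had been seen, 0 of 9 passed at either threshold (0.0779% of all genes by the adjusted and 6.2% by the unadjusted p).

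Summed over the antagonists Mxd1, Mxd3, Mxd4, Mxi1, Mnt and Mga, the level was 368 to 379 CPM in the sgZbtb1 libraries, 415 to 433 CPM in sgControl and 457 to 499 CPM in sgLmo2, so that the 3 groups did not overlap. In sgCbfa2t2 it was 348 to 424 CPM and in sgCbfa2t3 381 to 433 CPM, both overlapping sgControl. The level of Myc and Mycn divided by this sum was 0.434 to 0.447 in sgZbtb1, above sgControl (0.374 to 0.411) and sgLmo2 (0.379 to 0.399), but within the range of sgCbfa2t2 (0.397 to 0.461) and overlapping sgCbfa2t3 (0.384 to 0.437). Most of the sum came from Mxd4 and Mga. These sums were formed after the single values had been seen and were not tested.

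Around the network, 1 gene passed in sgZbtb1 against sgControl. Of the extended network, Mlx was 56.3 CPM in sgZbtb1 and 49.3 CPM in sgControl and Mlxip 19.6 and 14.9 CPM, Mycl had group means of at most 2.19 CPM, near the value of 3 reads, and Mlxipl was at 0 in all libraries. In sgZbtb1 against sgControl, limma called 0 of 3 tested genes of the extended network (0 at an unadjusted p under 0.05), 0 of 21 Myc cofactors and stability factors (3 unadjusted) and 0 of 13 Mxd corepressors (3 unadjusted), beside 4.79% of all genes called and 17.6% unadjusted. Of the 12 Mga partners in the Polycomb complex PRC1.6, Yaf2, which binds the Ring1 proteins, rose from 44.8 ± 6.31 to 73.2 ± 14.9 CPM (limma adjusted p = 0.019), and 11 did not pass.

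Of 30 tested genes of ribosome biogenesis that Myc is known to induce, 10 rose in sgZbtb1. Against sgControl 0 were lower, beside 1.85% of all genes called higher and 2.94% lower, and all 30 differences were positive, with a median of 0.28 beside -0.03 for all genes. Many of them are abundant, and among the 1997 genes with a mean above 100 CPM, 6.71% were called higher and 59.5% had positive differences. Dkc1, the pseudouridine synthase of H/ACA particles, was 874, 989.7 and 1059 CPM in sgZbtb1 against 658, 675 and 755 CPM in sgControl, without overlap (difference 0.48, SE 0.09, limma adjusted p = 0.000118). Nop2, an rRNA methyltransferase, averaged 131 against 87.1 CPM (0.56, limma adjusted p = 0.00722), Polr1a, the largest subunit of RNA polymerase I, 76.9 against 52.0 CPM (0.56, limma adjusted p = 0.0219), and Nop16, a nucleolar protein, 147 against 108 CPM (0.43, limma adjusted p = 0.0264). The count fell to 4 without sgZbtb1 replicate 1 or 3, to 5 without sgControl replicate 3, and to 6 without sgControl replicate 2 or with no filter on low values.

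Against sgLmo2, 14 of the 30 were higher in sgZbtb1 (1.84% of all genes and 6.36% of those above 100 CPM were called higher), with all 30 differences positive and a median of 0.33. There the count fell to 7 without sgLmo2 replicate 2, to 8 without sgZbtb1 replicate 3 and to 9 with no filter. Against sgCbfa2t2 5 were higher (0.649% of all genes), and against sgCbfa2t3 limma called 0 higher (0.303%), with 10 at an unadjusted p under 0.05 (10% of all genes). The 3 other disrupted groups gave 0 calls against sgControl by limma, with 6 unadjusted in sgCbfa2t3, 4 in sgCbfa2t2 and 2 in sgLmo2 (10.6%, 9.56% and 5.65% of all genes), medians of 0.12, 0.06 and -0.08, and 28, 22 and 8 of 30 differences positive. The sgZbtb1 libraries that differed in this list also differed in lineage markers. Summed T-lineage markers were 190 to 269 CPM in sgZbtb1, 432 to 459.6 CPM in sgControl and 486 to 531 CPM in sgLmo2, with all 6 tested markers below sgControl, 4 of them past the test, and Ptcra at 0 in all libraries. Of 4 tested B-lineage markers, 2 were called lower than in sgControl, Pax5 (0.81 against 6.8 CPM) and Ebf1 (217 against 336 CPM), and Ebf1 made up most of their sum. Of the 12 progenitor markers, Kit (10.2 against 22.3 CPM) and Ptprc (391 against 476 CPM) were lower and Cd34 (369 against 258 CPM) and Cd93 (329 against 229.5 CPM) higher. Of all genes, 2.94% were called lower and 1.85% higher in this comparison. Of 10 erythroid markers, Alas2, Hbb-bs, Hba-a1 and Hba-a2 were at 0 throughout and Hbb-bt alone was tested. Their sums were 112 to 169 CPM in sgZbtb1, 116 to 148 CPM in sgControl, 71.8 to 114 CPM in sgLmo2, 153 to 183 CPM in sgCbfa2t2 and 185 to 277 CPM in sgCbfa2t3, and Hbb-bt was called higher in sgZbtb1 than in sgLmo2 (132 against 86.4 CPM, limma adjusted p = 0.00344). The part of these markers in the results for the network and its targets was not tested.

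Of 38 tested genes of growth and metabolism, 6 were higher in sgZbtb1 than in sgControl and 0 lower, with a median of 0.19 and 28 positive differences, beside 30 positive in sgCbfa2t3, 31 in sgCbfa2t2 and 19 in sgLmo2. For sgZbtb1, of all genes 1.85% were called higher and 46.7% were positive, and of those above 100 CPM, to which 26 of the list belong, 6.71% and 59.5%. Srm, the spermidine synthase, rose from 215 ± 13.1 to 296 ± 36.2 CPM (0.45, limma adjusted p = 0.00211), Pa2g4, a regulator of growth, from 661 ± 14.4 to 896 ± 53.0 CPM (0.44, limma adjusted p = 5.97e-05), Cad, which begins pyrimidine synthesis, from 101 ± 5.39 to 138 ± 11 CPM (0.44, limma adjusted p = 0.0443), and Hspd1, the mitochondrial chaperonin, from 304 ± 32.1 to 389 ± 46.6 CPM (0.35, limma adjusted p = 0.0288). Without sgZbtb1 replicate 3 the count was 3. Against sgLmo2 8 were higher (1.84% of all genes, 6.36% of those above 100 CPM), 5 without sgLmo2 replicate 2, 4 without sgLmo2 replicate 3 or with no filter, and 2 without sgZbtb1 replicate 3. In sgCbfa2t3, 2 were higher than in sgControl (0.13% of all genes were called higher): the cyclin Ccnd2 at 1577 ± 171 against 1129.8 ± 57.8 CPM (limma adjusted p = 0.000116) and Pa2g4 at 824 ± 72.8 CPM (limma adjusted p = 0.028). In the same comparison the globin Hbb-bt was higher (217 against 129.9 CPM) and the T-lineage marker Thy1 lower (227 against 315 CPM), and their part in the result was not tested. In sgCbfa2t2 and sgLmo2 limma called 0 higher (0.026% and 0.00866% of all genes), with 6 and 1 at an unadjusted p under 0.05 in either direction (9.56% and 5.65%). Between sgZbtb1 and sgCbfa2t3, Ccnd2 alone passed, lower in sgZbtb1 by -0.46 (limma adjusted p = 8.44e-05, beside 1.13% of all genes called either way), and between sgZbtb1 and sgCbfa2t2 Pa2g4 alone, higher by 0.29 (limma adjusted p = 0.0203, beside 2.27%).

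Genes listed here as repressed by Myc went both ways, and whether Myc represses each of them in these cells was not tested. Of 17 tested, Cdkn1a, which encodes the cell cycle inhibitor p21, rose in sgZbtb1 from 491 ± 15.4 to 678 ± 48.8 CPM (limma adjusted p = 0.000496), while Cdkn1b, which encodes the related inhibitor p27, fell from 49.5 ± 2.34 to 32.4 ± 2.99 CPM (limma adjusted p = 0.0499) and Id2, an inhibitor of E proteins, from 157 ± 24.6 to 104 ± 23.8 CPM (limma adjusted p = 0.00183). The other 14 did not pass, beside 1.85% of all genes called higher and 2.94% lower, and the median difference was 0.01 beside -0.03 for all genes. Against sgLmo2 the same 3 genes passed in the same directions, and Cebpa, a myeloid transcription factor named after its value was seen, was higher, at 14.8 ± 5.8 against 5.03 ± 2.01 CPM (limma adjusted p = 0.0171), beside 5.06% of all genes called either way. In sgZbtb1 against sgCbfa2t3, Id2 alone passed (-1.09, limma adjusted p = 1.5e-08, beside 1.13% of all genes called either way). Against sgCbfa2t2, Id2 was lower (-0.66, limma adjusted p = 0.000701) and Cdkn1a higher (0.56, limma adjusted p = 3.24e-05), beside 2.27%.

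**Figure D4:**
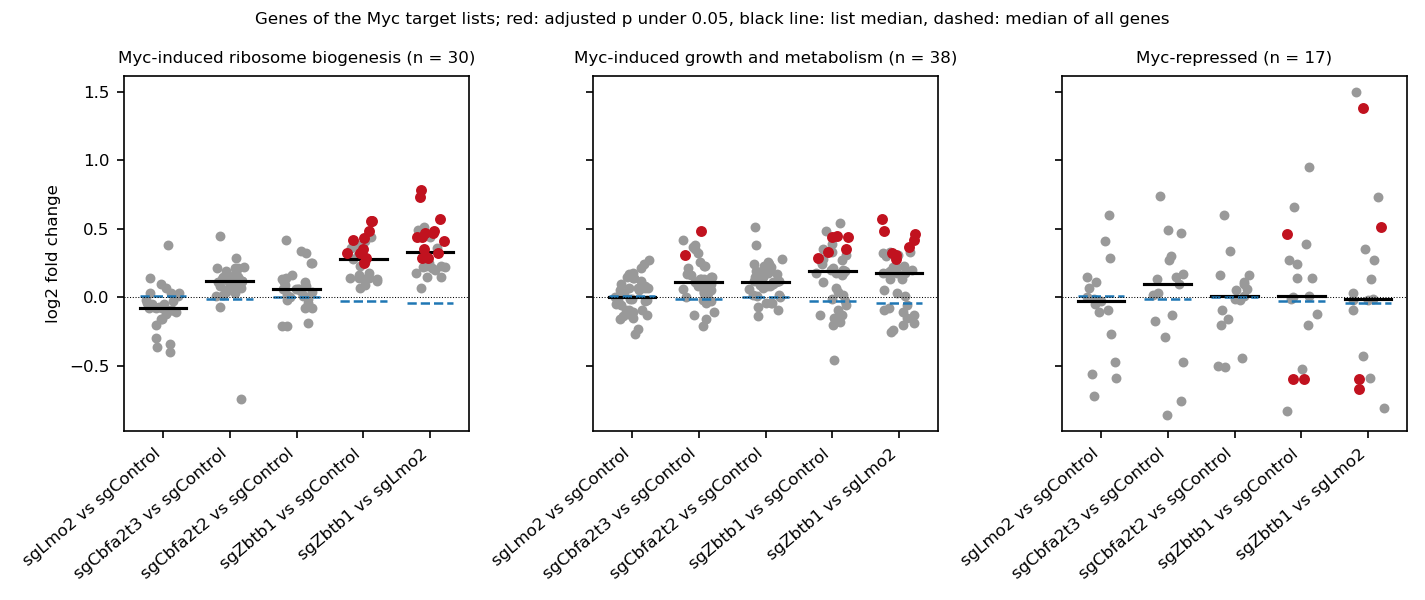
Difference in log2(CPM + 1) (y axis) of each tested gene (points) of the 3 lists of Myc-regulated genes in 5 comparisons (x axis). Red marks an adjusted p under 0.05 in limma, the black line is the list median and the dashed line the median of all genes. All 30 genes of ribosome biogenesis lie above 0 in sgZbtb1 against sgControl and against sgLmo2, with medians of 0.28 and 0.33, and against sgControl 28 lie above 0 in sgCbfa2t3, 22 in sgCbfa2t2 and 8 in sgLmo2.

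Zbtb1 peaks had 3 of the 9 genes, Mnt, Mxd4 and Mxi1, as nearest gene, and Cbfa2t3 peaks had 5, Mxd4, Mnt, Mxi1, Mycn and Max (28.9% and 21.9% of all tested genes had such a peak). Neither list had a peak nearest to Myc, Mxd1, Mxd3 or Mga, and the closest peaks to the Myc start lay 1150 kb upstream for Zbtb1 and 227 kb downstream for Cbfa2t3. That Cbfa2t3 peak lay within the span of Pvt1, 174 kb from its start, and was assigned to H2afy3. Each list gives 1 score per peak over 2 replicates, so that the scores carry no replicate error. Of the Zbtb1 peaks, 3 of 7 were annotated to promoters (29.8% of all Zbtb1 peaks), at Mnt, at Mxd4 and at the internal start of Mxi1, and of the Cbfa2t3 peaks 0 of 11 (12.7%). Scores ran from 15 to 69.2 for Zbtb1 and from 20.7 to 51.3 for Cbfa2t3, and their medians of 29.9 and 32.6 stood beside 28 and 33.2 over all peaks.

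Mxd4 had the most peaks, 6 in all. Zbtb1 lay over its start with a score of 20.3, at chr5:34187448-34187818, and Cbfa2t3 lay 1.4 kb upstream with a score of 21.4, and these did not overlap. The other 4, of which 3 were Cbfa2t3 peaks with scores of 29.8 to 37.3 and 1 was the Zbtb1 peak at the lowest score of its list (15), lay 8.9 to 45.4 kb upstream within the neighbouring gene Zfyve28. A peak is assigned by distance alone, so that a nearest gene need not be the one on which a factor acts. Zbtb1 and Cbfa2t3 peaks overlapped at 2 sites of the network, Mxi1 intron 1 and Mnt intron 4, which made 2 of 7 Zbtb1 and 2 of 11 Cbfa2t3 peaks, beside 25.2% and 24.4% of all peaks. The centres were 166 bp apart at Mxi1 and 291 bp at Mnt, and with centres within 100 bp required there was no shared site.

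**Figure D5:**
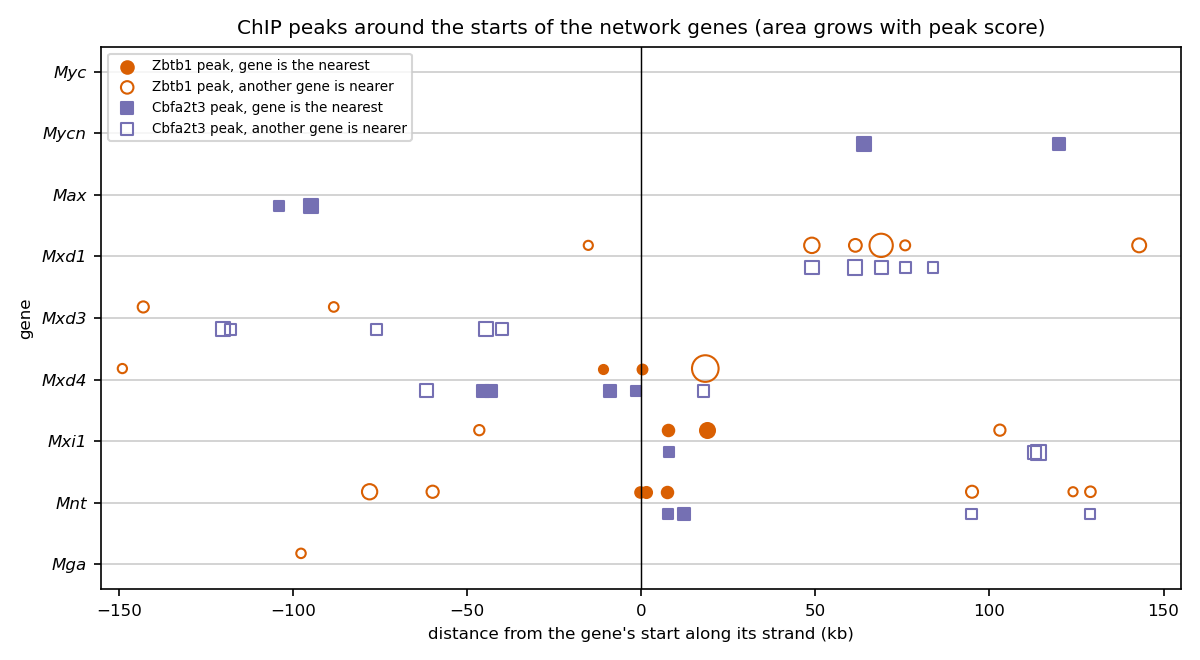
Zbtb1 peaks (circles) and Cbfa2t3 peaks (squares) by distance in kb from the start of each network gene along its strand (x axis; positive is downstream), 1 row per gene. Filled symbols have that gene as the nearest and symbol area grows with the score. Filled symbols of both factors fall together only within Mxi1 and Mnt and around the Mxd4 start, and the Myc row is empty.

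The E-box CACGTG, read on both strands in the central 200 bp, was in 0 of 7 Zbtb1 and 0 of 11 Cbfa2t3 peaks of the network, beside 4.48% and 5.37% of all peaks. In 300 bp it was in 1 of 7, the Mnt intron 1 peak, beside 6.86%. TGTGGT was in 2 of 7 and 4 of 11 (41.3% and 43.7% of all peaks), at Mxi1 intron 1 in both lists, at Mxd4, at Max and at the farther Mycn peak. TGGTGGT, which can overlap TGTGGT, was in 1 of 7 and 0 of 11 (15.8% and 6.94%), at Mxi1 intron 1 for Zbtb1. Of the network promoters in RefSeq (mm10, 250 bp before to 50 bp after the start), 8 of 9 genes matched, with 10 windows. The Myc promoter had no match and was not searched. CACGTG was in the windows of Mxd4, Mnt and Max, beside 7.15% of 32851 promoters. Their first bases lay 219, 123 and 3 bp before the starts. A match is a stretch of letters and not a measured site.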

How the data were processed

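QuantSeq 3′ mRNA libraries of LPs were sequenced in 5 groups, and chromatin of unedited LPs was immunoprecipitated for Zbtb1 and Cbfa2t3 (2 replicates each). Per the labels and methods, the authors trimmed reads with fastp, mapped them to mm10 with STAR and scaled them to library size. The counter and annotation are not given in the sources used here. The deposited values are CPM, although named TPM. The 8 deposited columns of the authors' own comparisons were not used. The deposited peak lists hold a HOMER score of at least 15 per reproducible peak, after mapping with Bowtie 1.1.1, which the authors called with HOMER against input and annotated to the nearest gene. Input files were not used.

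From the CPM steps, whole reads were recovered for 99.98% of values in every library (within 0.1 of a whole number). The log2(CPM + 1) values of 11554 genes with a mean above 1 were fitted with limma 3.58.1 over all 15 libraries (R 4.3.3), with Benjamini-Hochberg adjustment over all genes and a threshold of 0.05. The pseudocount of 1 understates differences of low genes. Exact two-sided permutation tests of 3 against 3 libraries cannot go below p = 0.1. Alternatives were a pseudocount of 0.1, no filter, a mean above 10, the 6 libraries alone, a replicate block, median-of-ratios factors, edgeR 4.0.16, DESeq2 1.42.0 and each library left out. The scripts were tested on simulated data. Replicate libraries of a group correlated at r = 0.964 to 0.973. Peaks without a printed gene name, 463 and 426, took the gene of their nearest RefSeq transcript, which added 2 Zbtb1 peaks and 1 Cbfa2t3 peak, all at Mxi1. Sequences are from GRCm38 (mm10) and promoters from RefSeq.

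The members and lists were chosen with earlier results of these data known. Named were all 9 members, up to 4 genes per direction and list with the largest called change against sgControl, Pvt1, the extended network, and the 4 genes most like Myc. Ddx39a was not matched in the table, and Tert, Mlxipl, Brms1, Ndrg2, Col1a1 and Thbs1 fell below the filter. Of 10 comparisons, 3 were added after values were seen, as were the list counts under each setting.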

Additional observations from a re-analysis of the deposited data

How the results depend on the processing

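The number of network genes past the threshold stayed at 0 against sgControl under all 8 other settings, and was 0 to 1 for sgZbtb1 over the fits that left out 1 library. For sgZbtb1 against sgLmo2 it was 0 to 3 when a library was left out, and Myc lost its call with no filter (0.75, limma adjusted p = 0.133), as more genes were then tested. Under the other settings 365 single differences kept their direction and side of the threshold, 2 gained a call and 1 lost it, and with a library left out 266 kept theirs, 8 lost a call and 1 gained one. Mxd4 in sgCbfa2t3 against sgControl was -0.34 to 0.0 over the left-out libraries.

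The check of the replicate numbers did not reach the level set for pairing, over 0.1 for every pair. Deviations of libraries with the same number correlated at -0.0131 to 0.113 (mean 0.0408) and those with different numbers at -0.121 to 0.0697 (mean -0.0204). Because deviations were taken from group means, the second mean largely follows from the first. Of 15 libraries, 13 correlated best with their own number, which is a hint from the data and not from the design. The replicate block raised the calls over all genes from 554 to 709 in sgZbtb1 against sgControl and from 585 to 699 against sgLmo2. It changed 1 of 90 member calls, Mxi1 in sgCbfa2t2 against sgLmo2, and so made 1 call there instead of 0. It gave 11 and 15 genes of ribosome biogenesis higher in sgZbtb1 than in sgControl and sgLmo2.

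That list gave 4 to 7 calls against sgControl and 7 to 14 against sgLmo2 over the left-out libraries, and 6 and 9 with no filter. The growth list gave 3 to 6 and 2 to 6 over the left-out libraries, and 4 against sgLmo2 with no filter. These fits were added after the data were seen.

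Shared sites numbered 2 of 7 Zbtb1 and 11 Cbfa2t3 peaks at network genes (25.2% and 24.4% of all peaks). They numbered 0 with centres within 100 bp (20.4% and 19.8%), 1 with at least 50% overlap (22.8% and 22.1%), 0 of 3 and 6 peaks with scores of at least 30 (18.8% and 14.4%), 7 of 19 and 20 when every peak within 100 kb of a start was taken (25.2% and 24.4%), and 1 of 5 and 10 with gene names as printed. CACGTG was in 1 of 7 Zbtb1 peaks in 300 bp windows, and TGTGGT in 6 of 11 Cbfa2t3 peaks there (49.5% of all) instead of 4, and in 1 of 3 Zbtb1 and 2 of 6 Cbfa2t3 peaks with scores of at least 30 (38.0% and 47.2%). The cause of these changes was not tested. Depth limits Mxd3, Mxd1 and Myc most, with as few as 16, 37 and 39 reads.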

Other observations

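Peaks near network genes but assigned to another gene included some with higher scores than any named above. Around 49.0 to 83.8 kb downstream of the Mxd1 start, in a stretch assigned to Asprv1, Zbtb1 had 4 peaks with scores of 191.6, 74.8, 45.9 and 21.4, and Cbfa2t3 had 5 with scores of 60.4, 51.3, 49.4, 30.4 and 22.7. The Zbtb1 peak with a score of 255.2 lay 18.4 kb downstream of the Mxd4 start and was assigned to Haus3, with a Cbfa2t3 peak of score 35.5 at 17.9 kb. Cbfa2t3 had 3 peaks 40.0 to 76.0 kb upstream of Mxd3, assigned to Rgs14 and Slc34a1. Neither Mxd1 nor Mxd3 passed the test in any comparison.

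Of the genes whose levels followed Myc over the libraries, Atp2b4 averaged 153 ± 17.9 CPM in sgZbtb1, 99.9 ± 28 CPM in sgControl and 79.5 ± 10.1 CPM in sgLmo2. Suclg2 averaged 30.2 ± 6.65, 15.3 ± 8.91 and 19.0 ± 6.53 CPM in the same groups, with sgControl lowest and overlapping sgZbtb1. Both were chosen for their likeness to Myc, and no test of them is given.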
